A study of Saccharomyces cerevisiae with 48 samples.

Results

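Glycogen is made and broken down by a small set of enzymes, and the transcripts of 8 of them or their regulators were followed through 3 time courses of budding yeast at 37 °C. The genes were chosen by name from what they are known to do, with earlier results of these data known. They are the glycogenins GLG1 (YKR058W) and GLG2 (YJL137C), the synthases GSY1 (YFR015C) and GSY2 (YLR258W), and the branching enzyme GLC3 (YEL011W). The others are the synthase-activating phosphatase subunit GAC1 (YOR178C), the phosphorylase GPH1 (YPR160W) and the debranching enzyme GDB1 (YPR184W). Each had 1 probe set, so all 8 were measured among 5449 genes.

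Messenger RNA was measured on 48 Affymetrix expression arrays, 1 per sample. All cells were BF264-15DU of mating type a, grown in rich medium (YEPD) at 25 °C. Newborn daughters were taken by their small size in an elutriation rotor, at the start of their cycle, and put into YEPD at 37 °C at time 0. The cdc28-4 strain carries a temperature-sensitive allele of CDC28, the gene of the cyclin-dependent kinase Cdk1, and is labelled as having no Cdk activity. Its 33 arrays form course 1 (15 arrays, 10 to 290 min) and course 2 (18 arrays, 10 to 350 min), both sampled every 20 min. The wild-type strain carries normal CDC28 and the bar1 genotype, and its 15 arrays form 1 course from 15 to 225 min, sampled every 15 min. RNA of samples 1 to 33 and of samples 34 to 48 was labelled with different kits. Read in listing order these are the 2 strains, so strain and labelling kit cannot be told apart.

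Glycogen is a branched polymer of glucose that yeast stores as a carbon and energy reserve. Glycogenin glucosylates itself to make a short primer, glycogen synthase lengthens the chains from UDP-glucose, and the branching enzyme moves chain ends onto side positions. Phosphorylase releases glucose 1-phosphate from the chain ends and the debranching enzyme removes the branch points that stop it. Synthase and phosphorylase are also controlled by phosphorylation, and Gac1 brings the phosphatase Glc7 to glycogen synthase. In this yeast, stores and transcripts of the pathway are known to rise as glucose runs low and under heat and other stress.

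The median intensity of the 5449 genes ran from 1486 to 1645 over the 48 arrays. Each array also carries 1746 probe sets of fission yeast, and the intensity under which 95% of these lay, 270 to 462, was taken as its background, and from 90.8% to 96.6% of genes lay above it. The 170 min array of cdc28-4 course 2 stood apart: the differences between the courses had an SD over genes of 0.32 on the log2 scale at 170 min, against a median of 0.16 over the 15 shared times. Of the genes of a cells, MFA1, MFA2 and STE2 were above background on all arrays. BAR1 lay between 7.38 and 7.69 on the log2 scale in wild type, under background on all 15 arrays, and between 10.99 and 12.88 in cdc28-4. The ratio of 3' to 5' probe sets of control transcripts, a measure of RNA quality and labelling, was 0.34 to 0.71 on the log2 scale in cdc28-4 and 0.59 to 0.87 in wild type.

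In cdc28-4 the glycogen genes were at their peaks in the first 30 min at 37 °C, had fallen steeply by 50 min, and rose part of the way back over the following hours. Levels are given as log2 intensity, on which 1 unit is a 2-fold difference, and levels of different probe sets are not comparable with each other. All 8 genes changed over the 15 times shared by the cdc28-4 courses, against 84.5% of all genes (limma F test, Benjamini-Hochberg adjusted p from 1.46e-11 for GSY1 to 5.54e-07 for GAC1). Their F values ran from 15.4 to 61.6 with a median of 38.1, against a median of 8.14 over all genes. All 8 also passed without the 170 min array of course 2. RNA came from whole cultures, in which fewer cells with a transcript and less of it per cell cannot be told apart.

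**Figure D1:**
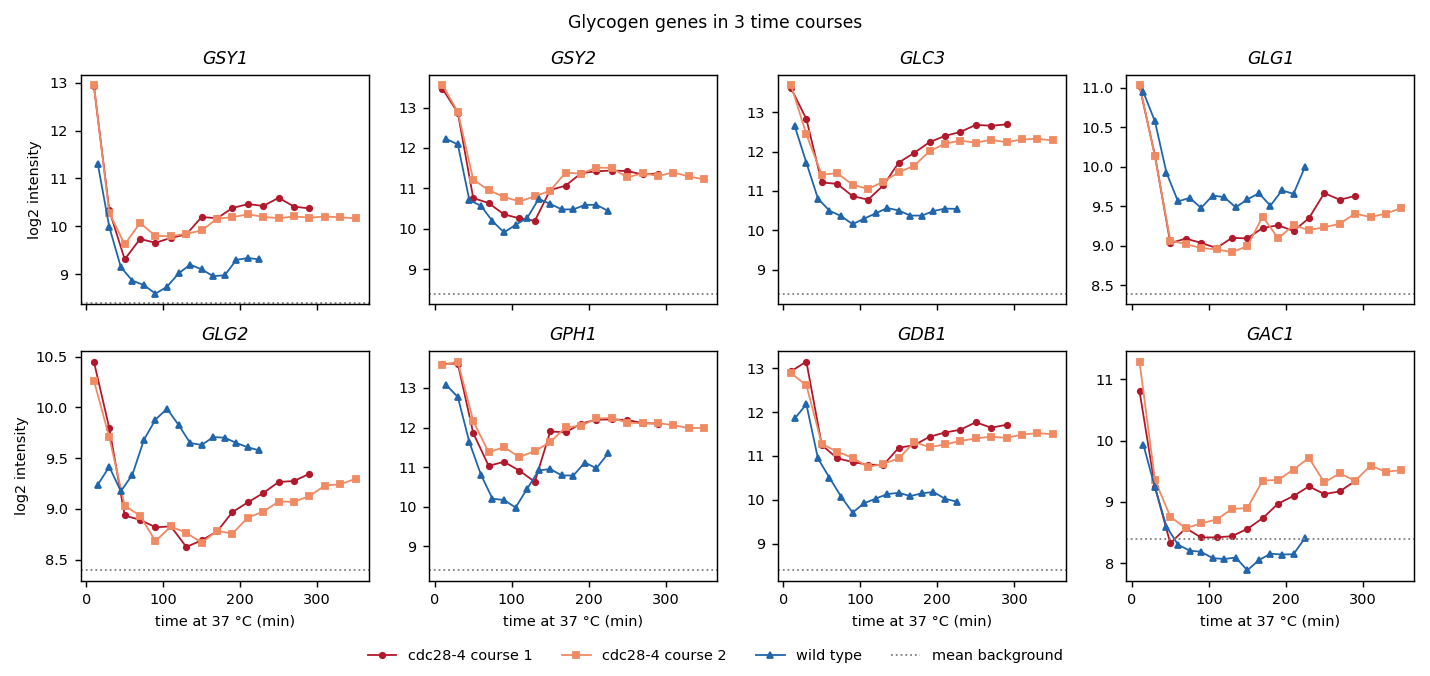
Levels of the 8 glycogen genes, 1 panel per gene. The vertical axes give log2 intensity, each on its own scale, and the horizontal axes the time at 37 °C in minutes. Points are single arrays of cdc28-4 course 1 (circles), cdc28-4 course 2 (squares) and wild type (triangles), and the dotted line is the mean background of 8.40. Every profile but that of GLG2 in wild type comes down from an early peak, and in wild type GAC1 lay at or under background from 60 min on.

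The first comparison set the earliest cdc28-4 samples against those at 90 min, and all 8 glycogen genes were higher at 10 min. Over all genes, 29.7% were higher and 40% lower, 69.7% in all. The median difference of the 8 genes was 2.39 on the log2 scale, against -0.08 over all genes, and both courses gave the same direction for each of the 8. Differences ran from 1.61 for GLG2 to 3.21 for GSY1, with standard errors of 0.10 to 0.23 from 2 arrays against 2. The 3' to 5' measure was 0.53 and 0.48 at 10 min in courses 1 and 2, 0.39 and 0.40 at 30 min, and 0.46 and 0.34 at 90 min, and its part in these differences was not tested. Nothing in the labels says how independently the 2 courses were grown, so these errors measure the spread between the courses.

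Chains are started by the glycogenins, which had 2 of the 3 smallest of these differences. GLG1 was at 11.02 and 11.04 at 10 min in courses 1 and 2 and at 9.04 and 8.97 at 90 min. GLG2, its paralog, was at 10.45 and 10.26 at 10 min and at 8.82 and 8.68 at 90 min. The last of these values was close to the background of its array, 8.58. In both genes the 10 min arrays stood clear of the 90 min arrays, by 4.06-fold for GLG1 (limma, adjusted p = 8.52e-12) and 3.04-fold for GLG2 (adjusted p = 2.75e-11). Over the whole course 1 GLG1 ranged from 8.97 to 11.02 with a median of 9.23, and GLG2 from 8.63 to 10.45 with a median of 8.97.

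Glycogen synthase, which lengthens the chains, showed the largest differences. GSY2 encodes the form that is more abundant as cells approach stationary phase, and GSY1 a paralog of it. GSY1 was at 12.93 and 12.95 at 10 min and at 9.66 and 9.80 at 90 min, a 9.27-fold difference (limma, adjusted p = 1.58e-13). That difference ranked 20 by size among the 5449 genes. GSY2 was at 13.47 and 13.56 at 10 min and at 10.36 and 10.79 at 90 min, a 7.67-fold difference (adjusted p = 2.26e-11). Whether RNA of one synthase or glycogenin also bound the probe set of its paralog was not tested.

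GLC3, the branching enzyme, was at 13.61 and 13.69 at 10 min and at 10.87 and 11.16 at 90 min, which is 6.21-fold (limma, adjusted p = 1.97e-10). GAC1, the phosphatase subunit, was at 10.81 and 11.29 at 10 min and at 8.42 and 8.65 at 90 min, which is 5.70-fold (adjusted p = 7.82e-09). GAC1 came close to background on the 90 min arrays of this comparison, where background was 8.31 in course 1 and 8.58 in course 2. Its lowest value in course 1 was 8.32 at 50 min, where background on that array was 8.08. It nevertheless stayed above background on all 33 cdc28-4 arrays.

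The breakdown genes were also higher at 10 min, by less than the synthases, GLC3 and GAC1. GPH1, the phosphorylase, was at 13.61 and 13.57 at 10 min and at 11.13 and 11.50 at 90 min, a 4.83-fold difference (limma, adjusted p = 9.53e-10). GDB1, the debranching enzyme, was at 12.93 and 12.89 at 10 min and at 10.86 and 10.96 at 90 min, a 3.99-fold difference (adjusted p = 7.30e-10). Genes of synthesis and of breakdown were therefore both high at 10 min. The size of the differences was not tested between the 2 kinds.

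The fall was then divided into its first 2 steps, from 10 to 30 min and from 30 to 50 min, and the genes left their peak at different times. Between 10 and 30 min 6 of the 8 fell and both breakdown genes did not pass the test, whereas between 30 and 50 min all 8 fell. Over all genes, 24.5% were lower and 31.4% higher at 30 than at 10 min, 55.9% in all. At 50 against 30 min 22.8% were lower and 25.4% higher, 48.2% in all. The median of the 8 genes was -0.76 in the first step and -1.20 in the second, against 0.04 and 0.004 over all genes.

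GSY1 made most of its fall in the first step. From 12.93 and 12.95 it went to 10.33 and 10.28 at 30 min and 9.31 and 9.62 at 50 min. On the log2 scale it fell by 2.63 (SE 0.14) in the first step and by 0.84 (SE 0.14) in the second (limma, adjusted p = 1.33e-11 and 5.58e-05). By size its first step ranked 18 of 5449. GAC1 followed the same order, from 10.81 and 11.29 to 9.25 and 9.36 at 30 min and 8.32 and 8.76 at 50 min. Its first step was -1.74 (SE 0.23) and its second -0.76 (SE 0.23), with adjusted p = 2.68e-06 and 0.0093 by limma. The second step lost its call when either the 50 min array of course 1 was left out (-0.54, limma adjusted p = 0.131) or the 30 min array of course 2 (-0.71, limma adjusted p = 0.0571).

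GSY2 went the other way round, with a small first and a large second step. Its values were 13.47 and 13.56 at 10 min, 12.87 and 12.89 at 30 min, and 10.76 and 11.22 at 50 min. On the log2 scale it fell by 0.63 (SE 0.18) and then by 1.89 (SE 0.18), with adjusted p = 0.00606 and 3.98e-08 by limma. The synthase pair therefore differed in when they fell, while their totals from 10 to 90 min were 3.21 and 2.94. The difference between the 2 genes was not itself tested.

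GLC3 and the glycogenins fell by like amounts in both steps. GLC3 was at 12.82 and 12.43 at 30 min and 11.22 and 11.41 at 50 min, with steps of -1.02 and -1.31 (SE 0.19). GLG1 was at 10.14 and 10.13 at 30 min and 9.04 and 9.07 at 50 min, with steps of -0.89 and -1.09 (SE 0.12). GLG2 was at 9.80 and 9.71 at 30 min and 8.94 and 9.03 at 50 min, with steps of -0.61 and -0.77 (SE 0.10). All 6 of these steps passed the test (limma, adjusted p at most 0.000124).

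Phosphorylase and debranching enzyme were still near their 10 min level at 30 min. GPH1 was at 13.61 and 13.57 at 10 min and 13.61 and 13.66 at 30 min, a difference of 0.05 with a 95% interval of -0.33 to 0.42 (limma, adjusted p = 0.837). GDB1 was at 12.93 and 12.89 at 10 min and 13.15 and 12.61 at 30 min. It moved up by 0.22 in course 1 and by -0.28 in course 2, with a mean of -0.03 and an interval of -0.35 to 0.30 (adjusted p = 0.891). Changes inside those intervals could not be told from none. Between 30 and 50 min GPH1 then fell by 1.63 to 11.86 and 12.16, and GDB1 fell by 1.62 to 11.25 and 11.28 (limma, adjusted p = 2.72e-07 and 4.08e-08). GPH1 went on down to 11.03 and 11.38 at 70 min.

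**Figure D2:**
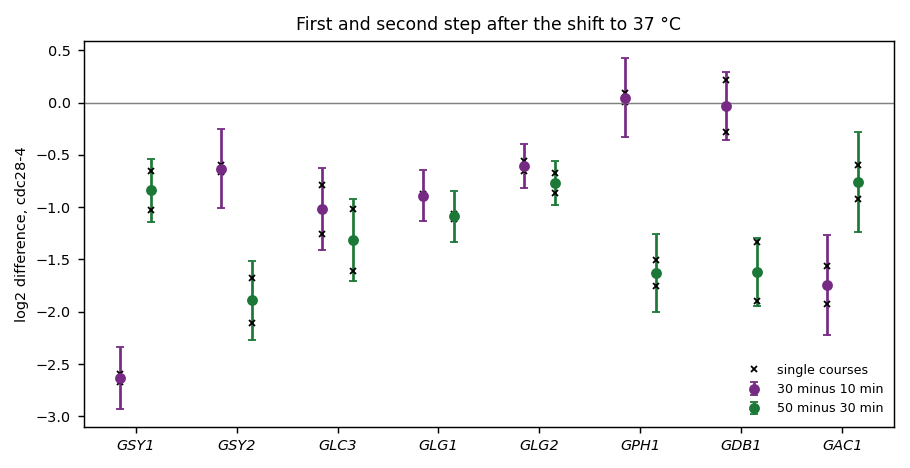
Change of each glycogen gene in cdc28-4 in the steps from 10 to 30 min and from 30 to 50 min. The vertical axis is the difference in log2 intensity, later minus earlier. Large dots are limma means with 95% intervals and crosses are the 2 single courses. GSY1 and GAC1 lay lowest in the first step, and GPH1 and GDB1 lay at 0.05 and -0.03 there but at -1.63 and -1.62 in the second.

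Late in the cdc28-4 courses the glycogen genes were compared between 270 and 290 min and 90 and 110 min, and all 8 were higher late. Over all genes, 27.2% were higher late and 29.1% lower, 56.2% in all. The median difference was 0.74 on the log2 scale for the 8 genes and -0.02 for all genes. For each of the 8 the rise was larger in course 1 than in course 2, with medians of 0.91 and 0.63 from 110 to 290 min. The 3' to 5' measure of control transcripts also rose between these windows, from 0.52 to 0.65 in course 1 and from 0.36 to 0.58 in course 2, and its part in the rise was not tested.

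GLC3 rose most. It was at 10.87 and 10.78 at 90 and 110 min in course 1 and at 12.66 and 12.69 at 270 and 290 min, and in course 2 it went from 11.16 and 11.05 to 12.30 and 12.24. Every late array lay above every earlier one, by 2.84-fold on average (log2 difference 1.50, SE 0.13, limma adjusted p = 2.00e-08, 4 arrays against 4). The courses gave 1.85 and 1.16, and the difference ranked 30 by size among all genes. At 290 min GLC3 was still below its 10 min values of 13.61 and 13.69 in both courses.

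GPH1, GSY2 and GAC1 came next. In course 1 GPH1 went from 11.13 and 10.91 to 12.11 and 12.10, and in course 2 from 11.50 and 11.26 to 12.10 and 12.11 (difference 0.91, SE 0.13, limma adjusted p = 6.51e-06). GSY2 went from 10.36 and 10.26 to 11.34 and 11.36 and from 10.79 and 10.68 to 11.37 and 11.31 (difference 0.83, SE 0.13, adjusted p = 2.08e-05). These 2 genes ended at nearly the same values in both courses, from lower starting values in course 1. GAC1 went from 8.42 on both arrays to 9.17 and 9.34, and from 8.65 and 8.71 to 9.47 and 9.34 (difference 0.78, SE 0.16, adjusted p = 0.000428).

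The remaining rises were smaller. GDB1 rose by 0.71 (SE 0.11), GSY1 by 0.54 (SE 0.10), GLG1 by 0.49 (SE 0.08) and GLG2 by 0.42 (SE 0.07), with limma adjusted p between 2.05e-05 and 0.000144. For GSY1 this was little beside its fall of 3.21 from 10 to 90 min, while for GLC3 the late rise of 1.50 stood against a fall of 2.63. The order of the genes thus differed between the early fall and the late rise.

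The rise did not take the same path in both courses. Between 130 and 150 min of course 1, GPH1 went from 10.63 to 11.90, a step of 1.27 that was the largest of all 5449 genes between these arrays. GSY2 was higher by 0.76 and GLC3 by 0.58 after that step, ranking 11 and 23 by size. In course 2 the same interval held steps of 0.23, 0.15 and 0.24 for these genes, which ranked 54, 249 and 49. Each step rests on single arrays and has no test. From 150 to 170 min of course 2 the 8 genes moved up by a median of 0.37, but the 170 min array stood apart and the SD over all genes in that step was 0.32. From 290 to 350 min, sampled in course 2 alone, the 8 genes moved by a median of 0.06.

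Mating type genes moved in the same windows, those of alpha cells mostly up and those of a cells down. Of 4 genes of alpha cells, MF(ALPHA)1 rose by 1.07, SAG1 by 1.00 and STE3 by 0.43 between the early and the late window of cdc28-4 (limma, adjusted p under 0.05), while MF(ALPHA)2 changed by 0.20 (adjusted p = 0.142). Over the same windows the a-cell genes MFA1, MFA2 and STE2 fell by 0.61, 0.66 and 0.30, and BAR1 fell by 0.91. The summed intensity of the 4 alpha-cell genes went from 2280 to 2996 on the 4 arrays at 90 and 110 min to 4069 to 4742 on those at 270 and 290 min. At 10 min 2 of the 4 alpha-cell genes were above background on both arrays and 2 on neither. In wild type the sum lay between 1581 and 1994, with 2 of the 4 above background on none of 15 arrays. The part of these changes in the late values of the glycogen genes was not tested.

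In wild-type cells, which were sampled once per time, 7 of the 8 genes were lower at 90 than at 15 min. From 15 to 90 min GPH1 went from 13.07 to 10.17, GSY1 from 11.31 to 8.59, GLC3 from 12.64 to 10.16 and GSY2 from 12.22 to 9.91. GDB1 went from 11.86 to 9.71, GAC1 from 9.93 to 8.19 and GLG1 from 10.95 to 9.48 over that time. GLG2 went from 9.24 to 9.88, against the others. The median change of the 8 was -2.23, against 0.05 over all genes, and having no replicate it carries no test.

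The order of the steps could be read in wild type too. From 15 to 30 min GSY1 moved by -1.32, GLC3 by -0.92 and GAC1 by -0.69, while GSY2 moved by -0.14, GPH1 by -0.30 and GDB1 by 0.32. From 30 to 45 min the larger steps were those of GSY2 (-1.38), GDB1 (-1.23) and GPH1 (-1.14). GSY1 and GAC1 reached background in wild type: GSY1 was under it on 2 of 15 arrays, at 90 and 105 min, and GAC1 on 12 of 15, from 60 min on. After its lowest value at 105 min, GPH1 went from 9.98 to 10.92 at 135 min and 11.34 at 225 min, and GSY2 went from 9.91 at 90 min to 10.74 at 135 min. GLC3 lay between 10.16 and 10.57 from 90 min on.

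GLG2 was the gene that ran apart in wild type. It started at 9.24 at 15 min, was lowest at 45 min with 9.17, reached 9.99 at 105 min, and then lay between 9.58 and 9.83. Its whole range there was 1.76-fold, against 3.54-fold in cdc28-4 course 1 and 3.02-fold in course 2. Without the 10 min arrays, a time that wild type lacks, the cdc28-4 ranges were 2.25-fold and 2.05-fold. In wild type its level correlated negatively with each of the other 7 genes over the 15 arrays, with r from -0.78 to -0.60, whereas the 21 pairs of the others had r from 0.80 to 0.97. Over the 33 cdc28-4 arrays the pairs with GLG2 had r from 0.80 to 0.96 and the other pairs from 0.69 to 0.97. Without the early arrays the contrast was weaker: after 45 min the wild-type pairs with GLG2 had r from -0.79 to -0.18 and the others from -0.13 to 0.89, with medians of -0.69 and 0.48. In cdc28-4 they then had r from 0.53 to 0.84 and from 0.61 to 0.95. The points of each correlation share their arrays.

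The strains share the times 30, 90, 150 and 210 min, and the change over these times was compared between them, a comparison in which a constant offset between labelling kits cancels. The single wild-type arrays were assumed to vary like the cdc28-4 pairs. Of the 8 genes GLG2 (F = 28.2, adjusted p = 1.68e-05) and GSY1 (F = 4.41, adjusted p = 0.0485) differed between strains over the 4 times by limma, against 33.8% of all genes. The GSY1 call was lost in 8 of 17 alternatives, with adjusted p between 0.0273 and 0.119. GAC1 did not pass (F = 3.08, adjusted p = 0.115), but it passed with the course as a block (F = 12.1, adjusted p = 0.000719).

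From 30 to 90 min GLG2 went up in wild type and down in cdc28-4. It moved from 9.41 to 9.88 in wild type, from 9.80 to 8.82 in cdc28-4 course 1 and from 9.71 to 8.68 in course 2. On the course 2 array at 90 min background was 8.58, so GLG2 lay only a little above it there. The changes were 0.47 and, as the mean of the courses, -0.999, and their difference of 1.46 (SE 0.17) passed the test (limma, adjusted p = 7.85e-06). GSY1 fell in both strains, and further in wild type. It went from 9.99 to 8.59 in wild type, from 10.33 to 9.66 in course 1 and from 10.28 to 9.80 in course 2. Its changes were -1.39 and -0.58, with a difference of -0.82 (SE 0.25, adjusted p = 0.0248 by limma). Its wild-type value at 90 min was under background. With that value set to background the difference was -0.66 and did not pass (limma adjusted p = 0.0672), and the call was also lost when the array of course 2 at 30 min was left out (limma adjusted p = 0.0575), and likewise that at 90 min (limma adjusted p = 0.0689).

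Over all genes, 10.8% changed more upward in wild type between 30 and 90 min and 8.48% more downward, 19.3% in all, so that 56.1% of calls were higher, or 40.2% when arrays were centred on the fission yeast probe sets. The other 6 glycogen genes did not pass, with differences from -0.50 for GDB1 to 0.13 for GSY2. For GDB1 the 95% interval was -1.06 to 0.07, and without the course 1 array at 30 min it passed at -0.77 (limma, adjusted p = 0.037). For GLG1 the interval was -0.39 to 0.46, and differences inside it could not be told from none.

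From 90 to 210 min the cdc28-4 genes had begun to rise, and 1 of the 8 changed differently in wild type by the test. GLG2 went from 9.88 to 9.61 in wild type while it went from 8.82 to 9.06 and from 8.68 to 8.91 in cdc28-4, a difference of -0.51 (SE 0.17, limma adjusted p = 0.038). That call was lost in 4 of 13 alternatives, with adjusted p between 0.00917 and 0.143. Over all genes 13.5% differed upward and 11.2% downward, 24.7% in all, and the share of calls that were higher moved from 54.6% to 42.5% with arrays centred on their medians and to 78% with fission yeast centring.

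GLC3 and GAC1 had the larger differences there without passing. GLC3 went from 10.16 to 10.55 in wild type, from 10.87 to 12.40 in course 1 and from 11.16 to 12.20 in course 2, a difference of -0.89 (SE 0.33, limma adjusted p = 0.0529). It passed in 4 of 13 alternatives, with the course as a block among them (adjusted p = 0.0277). GAC1 went from 8.19 to 8.15 in wild type, under background on both arrays, and went from 8.42 to 9.10 and from 8.65 to 9.53 in cdc28-4. Its difference of -0.82 (SE 0.40) had a limma adjusted p of 0.146, and of 0.00397 with the course as a block. GPH1, GSY2, GSY1, GDB1 and GLG1 differed by -0.21 to 0.12.

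**Figure D3:**
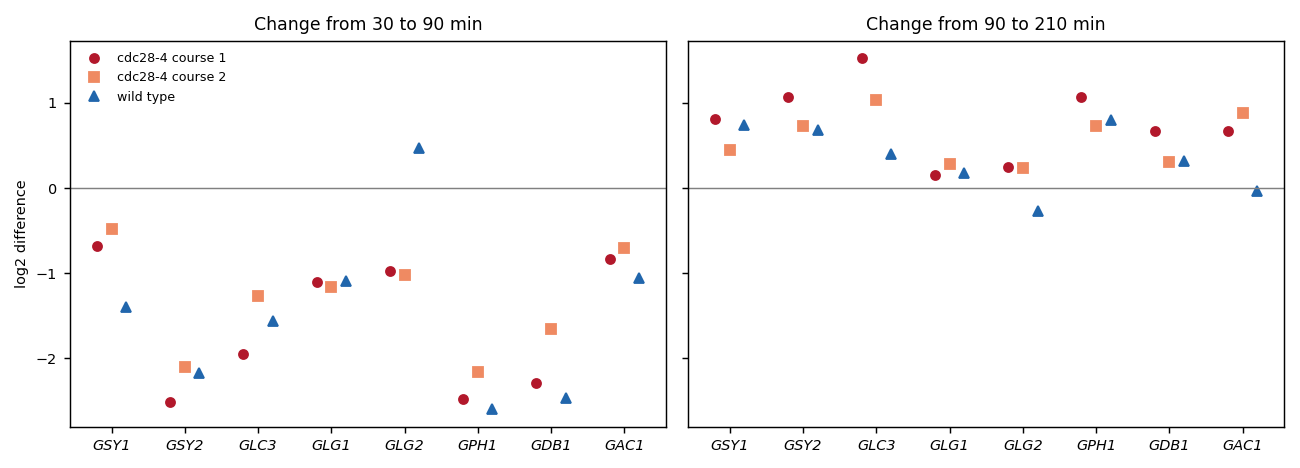
Change of each glycogen gene from 30 to 90 min (left) and from 90 to 210 min (right). The vertical axes give the difference in log2 intensity, later minus earlier, and symbols are cdc28-4 course 1 (circles), cdc28-4 course 2 (squares) and wild type (triangles), each from single arrays. GLG2 alone has its wild-type value on the other side of 0 from both cdc28-4 values on the left, at 0.47 against -0.999 on average.

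Levels over the 4 shared times were lower in wild type for 6 genes, GAC1 with values mostly under background, and higher for 2, against 30.7% lower and 34.7% higher, 65.3% in all, over all genes. GLC3 averaged 10.73 in wild type and 11.88 in cdc28-4 (difference -1.15, SE 0.09), GDB1 10.52 and 11.56 (-1.04, SE 0.11), and GPH1 11.22 and 12.23 (-1.02, SE 0.08). GSY2 differed by -0.67 (SE 0.09). GSY1, above background on 3 of the 4 wild-type arrays, differed by -0.86 (SE 0.08), and by -0.82 with the other array set to its background. The glycogenins were higher in wild type, GLG1 at 9.83 against 9.35 (0.47, SE 0.08) and GLG2 at 9.63 against 9.04 (0.59, SE 0.08). GAC1 was above background on 1 of 4 wild-type arrays, and against background its level in wild type was at least 1.12-fold lower, a difference that did not pass (limma adjusted p = 0.253).

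With the values as deposited all 8 differences passed in limma (adjusted p between 0.000129 and 0.00433), from 2 cdc28-4 course means against 1 wild-type mean. The spread between wild-type courses was not measured, so the errors rest on the 2 cdc28-4 courses and on the spread of other genes. Labelling kit and strain cannot be told apart in these levels. The 3' to 5' measure over the same times was 0.71 in wild type and 0.46 and 0.39 in the cdc28-4 courses, and its part in the level differences was not tested. The bar1 genotype also separates the strains.

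Rhythm over the division cycle was tested with a cosine and a sine at 1 period shared by all genes. The period that best described 89 cell cycle genes in wild type was 82 min. By limma 0 of the 8 glycogen genes were called at that period, against 0.0551% of all genes, and 0 had an unadjusted p under 0.05. Those counts say little about the genes, since 0 of the 89 cell cycle genes were called either, although 66 had an unadjusted p under 0.05. The period was chosen on these same 89 genes and arrays, which favours them, so how many of them passed is no yardstick for the glycogen genes. Without the arrays before 45 min, 16 of the 89 and again 0 of the 8 were called, against 0.991% of all genes. Of the 8, 3 then had an unadjusted p under 0.05, and the share of all genes that did was not counted. GSY1 then came nearest, with a limma adjusted p of 0.0852 and an amplitude of 0.20 on the log2 scale.

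In cdc28-4 the search for a period ended at the longest value tried, 160 min, so no period was determined. At that value 0 of the 8 glycogen genes were called by limma, against 0.734% of all genes, and 5 had an unadjusted p under 0.05. The weakest of these 5, GLG1, ranked 1568 by F among the 5449 genes. Without the arrays before 45 min 7 of the 8 were called, along with 18.7% of all genes.

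Companion genes were counted to see which steps around the pathway moved with it, and the sugar phosphate genes that feed it did so in part. Of 6 such genes, 5 were higher at 10 than at 90 min in cdc28-4, against 29.7% of all genes, with a median of 0.97. PGM2, the main phosphoglucomutase, which interconverts glucose 6-phosphate and glucose 1-phosphate, differed by 2.27 (SE 0.24), from 13.84 to 11.57. UGP1, which makes UDP-glucose, differed by 1.17 (SE 0.13), the glucokinase gene GLK1 by 1.00 (SE 0.10), and PGM1, the minor phosphoglucomutase, by 0.50 (SE 0.12). Late in cdc28-4 again 5 of the 6 were higher, against 27.2% of all genes, PGM2 by 0.70 (SE 0.17) and GLK1 by 0.52 (SE 0.07), while UGP1 changed by 0.19 (SE 0.09, limma adjusted p = 0.104). The PGM2 rise was 1.12 in course 1 and 0.27 in course 2.

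Subunits of the Glc7 phosphatase were higher at 10 min in 4 of 7 cases, against 29.7% of all genes. GIP2, which encodes a Glc7-binding protein related to Gac1, differed by 2.76 (SE 0.17) and PIG2, another such protein, by 1.47 (SE 0.09). At 90 min GIP2 was at 8.41 and 8.42 in courses 1 and 2, where background was 8.31 and 8.58. Its differences against that time are thus taken from values at or under background. REG2, whose product takes Glc7 to other substrates, differed by 0.98 (SE 0.10). Late, 4 of the 7 rose, against 27.2% of all genes, GIP2 by 0.59, PIG2 by 0.58 and REG1 by 0.44. Between 30 and 90 min PIG1 moved by -1.26 in wild type and -0.19 in cdc28-4, a difference of -1.06 (SE 0.14) that passed in limma. So did those of PIG2 (-0.70, SE 0.16) and GLC8 (-0.50, SE 0.15). The wild-type value of PIG1 at 90 min, 8.27, was under the background of that array, 8.75. The size of its fall is therefore uncertain, and setting this value to background was not tried.

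On the kinase side, which holds protein kinase A, Snf1, Pho85 with its cyclins and other regulators, 11 of 17 genes were higher and 2 lower at 10 than at 90 min, against 29.7% and 40% of all genes. TPK2 and TPK3, which encode catalytic subunits of protein kinase A, went opposite ways, by 1.52 (SE 0.08) and -1.49 (SE 0.08). YAK1, a kinase that acts against protein kinase A, was higher by 1.48 (SE 0.10) and rose late by 0.91 (SE 0.07), while TPK3 was lower late by -0.62 (SE 0.06). PCL8, one of the Pho85 cyclins that direct this kinase to Gsy2, was higher at 10 min by 0.99 (SE 0.08).

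Both further genes tied to breakdown, an enzyme gene and the gene of an inhibitor, were higher at 10 min and late, against 29.7% and 27.2% of all genes. SGA1, a glucoamylase gene known from sporulation, was higher at 10 min by 2.25 (SE 0.13) and late by 0.50 (SE 0.09). IGD1, whose product inhibits the debranching enzyme Gdb1, was higher at 10 min by 2.28 (SE 0.19) and late by 1.10 (SE 0.13). Of 4 stress factor genes 3 were higher at 10 min and 1 late, against 29.7% and 27.2% of all genes. MSN4 was higher at 10 min by 1.81 (SE 0.11), GIS1 by 1.54 (SE 0.09) and MSN2 by 0.52 (SE 0.06), while HOG1 differed by 0.13 (SE 0.10, limma adjusted p = 0.235). MSN2 was the gene that rose late, by 0.54 (SE 0.04), and the late differences of MSN4, HOG1 and GIS1 were -0.03, 0.01 and 0.09.

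Trehalose is the other stress carbohydrate of yeast and competes for the same UDP-glucose. Its genes were mostly higher at 10 min and late, but most were not called lower in the first step of the fall. All 7 trehalose genes were higher at 10 than at 90 min, against 29.7% of all genes, with a median of 0.94 where that of the glycogen genes was 2.39. From 10 to 30 min 2 of the 7 fell and 1 rose, against 24.5% and 31.4% of all genes, so these counts alone do not set them apart. Their steps ran from -0.68 to 0.41 with a median of 0.03, and those of the glycogen genes from -2.63 to 0.05. Between 10 and 90 min TPS2 differed by 1.57 (SE 0.10), TSL1 by 1.50 (SE 0.12) and TPS1, the synthase, by 1.24 (SE 0.11), all higher at 10 min. Late, 6 of the 7 rose, against 27.2% of all genes, with a median of 0.32, led by the trehalase genes NTH1 (0.67, SE 0.08) and ATH1 (0.66, SE 0.08). The difference between the 2 groups of genes was not tested.

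Between 30 and 90 min 4 of the 7 trehalose genes changed more downward in wild type than in cdc28-4, against 8.48% of all genes. TPS2 moved by -1.62 in wild type and -0.88 in cdc28-4 (difference -0.74, SE 0.17), TPS3 differed by -0.70 (SE 0.17), ATH1 by -0.67 (SE 0.20) and TSL1 by -0.65 (SE 0.21), all passing in limma. PGM1 moved upward like GLG2, by 0.81 in wild type and 0.17 in cdc28-4 (difference 0.64, SE 0.20, adjusted p = 0.0353 by limma). It then also turned the other way from 90 to 210 min, with a difference of -0.80 (SE 0.20, adjusted p = 0.00889).

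**Figure D4:**
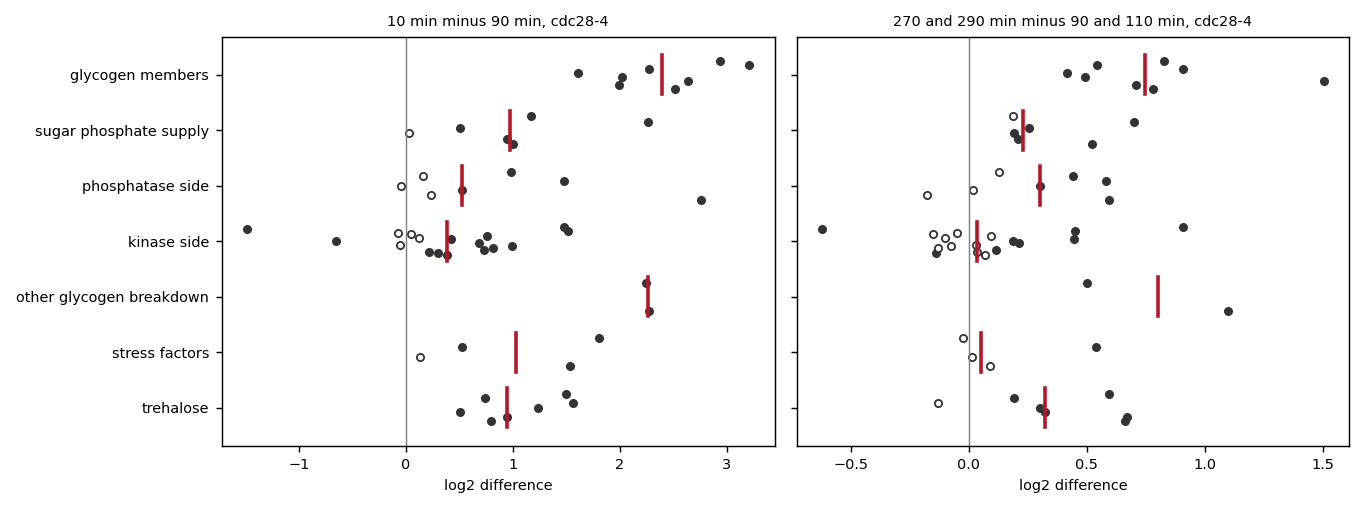
Differences in cdc28-4 for the 8 glycogen genes and 6 companion groups, 10 minus 90 min (left) and 270 and 290 minus 90 and 110 min (right). The horizontal axes give log2 differences, points are genes (filled where the limma adjusted p was under 0.05) and red bars are medians. The glycogen genes have a median of 2.39 on the left and 0.74 on the right, and the trehalose genes 0.94 and 0.32.

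The 2 cdc28-4 courses gave closely similar profiles for these genes. Over the 15 shared times Pearson's r between the courses was 0.95 to 0.97 for each of the 8, with a median of 0.964 against 0.873 over all genes. Without 170 min the medians were 0.969 and 0.928. The values were lower without the early fall: over the 13 times after 45 min r ran from 0.759 for GLG1 to 0.977 for GLC3, with medians of 0.896 and 0.688.

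For each glycogen gene the genes most like it were ranked by Pearson's r over the 48 arrays, after each strain's mean was subtracted. GLG1 was most like GIP2 and IKS1, both at r = 0.980, although GIP2 was above background on only 3 of the 15 wild-type arrays. GLC3 was most like RTC2 (r = 0.970), GSY1 like EMI2 (r = 0.968), and GDB1 like HFD1 (r = 0.965) and DCS2 (r = 0.964). GSY2 and GPH1 shared ATG19 as their nearest gene (r = 0.966 and 0.953), and GAC1 was most like KIN82 (r = 0.940). GLG2 stood out by its lower values and other neighbours, the linker histone gene HHO1 (r = 0.912), ISR1 (r = 0.847) and HOS3, a histone deacetylase gene (r = 0.836). These values describe arrays that share their time order and libraries. After 45 min the nearest genes changed for most, with SRL3 for GLC3 (r = 0.965), YPK1 for GLG2 (r = 0.878) and SGA1 as the third for GDB1 (r = 0.906). SGA1 was above background on only 2 of the 15 wild-type arrays.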

How the data were processed

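The authors deposited 1 linear intensity for each probe set of an array, made with the R package affy per the submitters' processing notes. How probes were summarized and arrays normalized, and which version was used, is not given in the sources used here. Log2 was taken with no added constant, and for genes with several probe sets the probe set of highest mean stood for the gene, which concerned none of the 8 glycogen genes. The members and all gene lists were chosen with earlier results of these data known.

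All tests used limma 3.58.1 in R 4.3.3, two-sided, with Benjamini-Hochberg adjustment over 5449 genes and a threshold of 0.05. One fit held 33 means of strain and time on 48 arrays, with 4 prior and 15 residual degrees of freedom. The residual ones come from times with both cdc28-4 courses. Levels of the strains were tested on 3 course means, and periodicity with a cosine and a sine over a quadratic trend of each course. Values under background entered the tests as deposited, and setting those of the 8 genes to background was an alternative, which also gave the bound for GAC1. The scripts were tested on simulated data. Arrays hold no counts, so the number of arrays limits the precision.

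The replicate number is the course and pairs the cdc28-4 samples: the differences between the courses correlated between times with a median r of 0.468, over 0.1 in 92.4% of 105 pairs of times. The main fit treats the differences at separate times as independent, which they were not, so its p-values may be off in either direction. A lasting offset between the courses cancels in a contrast of times but stays in the spread of this fit, which makes p-values too large. Fewer independent differences than the fit counts would make them too small. A fit with the course as a block was an alternative. No 2 arrays held identical values. Genes named are all 8 members, PGM1, PGM2, UGP1, TPS1, TSL1, up to 3 genes of each companion list by size among those past the threshold, and the 3 genes most like each member. SRL3 and YPK1 were named after their values were seen. Genes of both mating types served as a check.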

Additional observations from a re-analysis of the deposited data

Results flagged for a closer look

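GLG2 changed differently in the 2 strains from 30 to 90 min, by 1.46 on the log2 scale (SE 0.17, limma adjusted p = 7.85e-06), upward by 0.47 on the wild-type arrays and and by -0.999 on average in cdc28-4, downward in both courses. It passed in all 13 alternatives run for it.

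GLG2 also changed differently from 90 to 210 min, by -0.51 (SE 0.17, limma adjusted p = 0.038), now downward in wild type and upward in both cdc28-4 courses. GSY1 fell further in wild type from 30 to 90 min, by -0.82 (SE 0.25, limma adjusted p = 0.0248), against both courses, and by -0.66 (adjusted p = 0.0672) with a wild-type value under background set to it. Each of these 3 differences rests on 1 wild-type array per time, and strain, labelling kit and the bar1 genotype cannot be told apart in them.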

How the results depend on the processing

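Of 88 results for single glycogen genes, 71 kept their call under every alternative run for them. Over 1328 alternative values 18 lost a call, 19 gained one and 0 changed direction in a called result. With the course as a replicate block, 3 genes rather than 1 differed from 90 to 210 min (GLC3 and GAC1 joined) and GAC1 joined in the test over 4 times; it changed no other call.

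The median of the 8 genes at 10 minus 90 min was 2.51 without GLG2 and 2.24 to 2.54 with single arrays left out, and that at 30 minus 10 min was -0.89 without GLG2. The strain level median of -0.76 became -0.86 without GLG2, -0.81 with arrays centred on their medians, -0.79 with quantile normalization, -0.83 with fission yeast centring and -0.73 with 50 added to the intensity. Leaving out single arrays gave 1 to 3 genes called from 30 to 90 min, 0 to 1 from 90 to 210 min and 1 to 2 over 4 times. From 90 to 210 min median centring gave 2 and fission yeast centring 0, and over 4 times adding 50 gave 1. Setting values under background to it gave 1 gene from 30 to 90 min, where the median of the 8 genes turned from -0.12 to 0.045, and 1 over 4 times, and a strain level median of -0.74. Fission yeast centring moved the median of all genes to -0.11 from 30 to 90 min and to 0.16 from 90 to 210 min.

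The cdc28-4 periodicity count of 0 became 4 with a period 10 min longer and 7 without the arrays before 45 min. Over all genes it went from 40 to 23 (median centring), 5 (fission yeast), 0 and 1 (single courses), 3 (shorter period), 793 (longer), 1021 (later arrays) and 76 (without the 170 min array). In wild type 3 became 0 (median centring or shorter period), 1 (quantile), 6 (fission yeast), 7 (longer) and 54 (later arrays). Why these values moved was not tested. Leaving out the array at 170 min or GLG2, or setting values to background, was chosen after seeing the data.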
